A study of Drosophila melanogaster with 3 samples.

Results

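The genes described here encode the proteins of the mitochondrial ribosome, and the measurement is the binding of the transcription factor subunit Nf-YB at their promoters in embryos of Drosophila melanogaster. Members were taken by symbol, as all protein-coding genes of Ensembl release 115 whose name begins with mRpL (large subunit) or mRpS (small subunit). This gave 73 of 13945 protein-coding genes, 47 with an mRpL and 26 with an mRpS symbol. Large and small subunit refer to the symbol throughout, and the place of each protein in the ribosome was not checked. Chromatin immunoprecipitation sequencing (ChIP-seq) was done on intact embryos 0 to 24 h old, pooled over both sexes, from a transgenic fly line whose Nf-YB carries GFP (green fluorescent protein) at its C terminus. The labels' description names an antibody to GFP, while their antibody field names Nf-YB. Chromatin was sonicated, with a stated size range of 200 to 800 bp. There were 3 biological replicates of 1 group and no second genotype, stage or treatment, so the members are set beside all protein-coding genes and the replicates beside each other. All tissues of an embryo are mixed in such a sample, and a peak list holds no expression values with which cell types could be checked.

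Mitochondrial ribosomes translate the few proteins encoded in mitochondrial DNA, which are subunits of the respiratory chain and of ATP synthase. Their RNA comes from the mitochondrial genome, whereas all their proteins are encoded in the nucleus, made in the cytosol and imported. Some of these proteins have counterparts in bacterial ribosomes, and others are known only from mitochondria. NF-Y is a complex of the subunits A, B and C, in which B and C form a histone-like pair and A reads the CCAAT box.

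To let the bound sequences be read, 101 bases centred on the peak summit are printed for 8 bound members. They were chosen to show 5 of the 7 members with the highest peaks (mRpL30, mRpS10, mRpS23, mRpL24 and mRpL20), another CCAAT-bearing member (mRpS7), and a pair with no divergent neighbour (mRpL19 and mRpL4). Sequences are RefSeq's for dm6, written 5′ to 3′ on the strand of the member, with CCAAT, or its reverse complement ATTGG, in capitals. Windows are mRpL30 at chrX:4647478-4647578 on the plus strand, mRpS10 at chr3R:15229487-15229587 on the plus strand, mRpS23 at chr2L:13835406-13835506 on the minus strand, mRpL24 at chr2L:4945429-4945529 on the minus strand, mRpL20 at chr3L:13018088-13018188 on the minus strand, mRpS7 at chr2L:10386494-10386594 on the plus strand, mRpL19 at chr3R:8673971-8674071 on the plus strand, mRpL4 at chr2L:16329182-16329282 on the minus strand.
mRpL30: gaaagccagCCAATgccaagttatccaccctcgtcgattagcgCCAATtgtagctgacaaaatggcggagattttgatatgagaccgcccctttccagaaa
mRpS10: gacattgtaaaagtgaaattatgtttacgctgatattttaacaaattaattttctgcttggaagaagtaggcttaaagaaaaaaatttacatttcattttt
mRpS23: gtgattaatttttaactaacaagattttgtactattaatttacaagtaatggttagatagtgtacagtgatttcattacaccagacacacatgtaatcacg
mRpL24: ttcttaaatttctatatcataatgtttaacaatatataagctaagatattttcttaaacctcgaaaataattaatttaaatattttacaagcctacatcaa
mRpL20: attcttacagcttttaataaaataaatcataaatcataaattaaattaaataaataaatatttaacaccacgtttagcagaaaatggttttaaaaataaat
mRpS7: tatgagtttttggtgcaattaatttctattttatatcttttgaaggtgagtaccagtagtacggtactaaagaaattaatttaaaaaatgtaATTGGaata
mRpL19: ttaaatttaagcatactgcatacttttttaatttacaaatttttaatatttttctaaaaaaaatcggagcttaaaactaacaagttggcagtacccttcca
mRpL4: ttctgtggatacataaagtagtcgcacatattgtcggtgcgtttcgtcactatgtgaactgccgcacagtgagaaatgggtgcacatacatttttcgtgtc
Both CCAAT boxes of mRpL30 lie in its left portion up to the centre, and the ATTGG of mRpS7 lies near its right end. The other 6 windows hold no CCAAT on either strand. The windows of mRpL20, mRpL24 and mRpS10 are long runs of A and T, with a GC content of 15.8%, 18.8% and 23.8%, while those of mRpL30 and mRpL4 reach 48.5% and 44.6%.

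A gene was counted as bound when a summit of the authors' optimal list, which holds 6221 peaks, was no more than 500 bp away from a start site of the gene (transcription start site, TSS). By this measure 24 of the 73 members (32.9%, exact 95% Clopper-Pearson interval 22.3 to 44.9%) were bound, against 21.6% of all protein-coding genes. The interval covers the counting of genes only. Bound genes of the large subunit were mRpL4, mRpL19, mRpL20, mRpL21, mRpL23, mRpL24, mRpL30, mRpL34, mRpL41, mRpL42, mRpL44 and mRpL53. Those of the small subunit were mRpS2, mRpS6, mRpS7, mRpS10, mRpS16, mRpS18B, mRpS21, mRpS22, mRpS23, mRpS24, mRpS26 and mRpS31. Most members, 49 of them, had no optimal summit in the window.

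Each replicate list holds 30000 peaks, so the replicates were compared over their 6221 peaks of highest signal. In replicate 1, 22 members (30.1%) were bound, against 21.1% of protein-coding genes. Replicate 2 gave 18 members (24.7%) against 19.0%, and replicate 3 gave 27 members (37.0%) against 22.6%. The count was thus lowest in replicate 2 and highest in replicate 3, with a mean of 22.3 ± 4.51 (SD, n = 3). The members' share was above that of all coding genes in each of the 3 replicates, by 9.68 ± 4.41 percentage points (SD, n = 3; range 5.66 to 14.4). With 3 samples of a single group the difference has no test between conditions.

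The lower ranks of the lists held many more members. The whole pooled list of 30000 peaks had a summit at 49 members (67.1%), against 48.1% of protein-coding genes. Whole replicate lists had one at 57 members (78.1%) in replicate 1 against 49.4%, at 49 members (67.1%) in replicate 2 against 46.8%, and at 47 members (64.4%) in replicate 3 against 47.3%. At this length the members' share stood 17.0 to 28.7 points above the coding share in the 3 replicates.

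**Figure D1:**
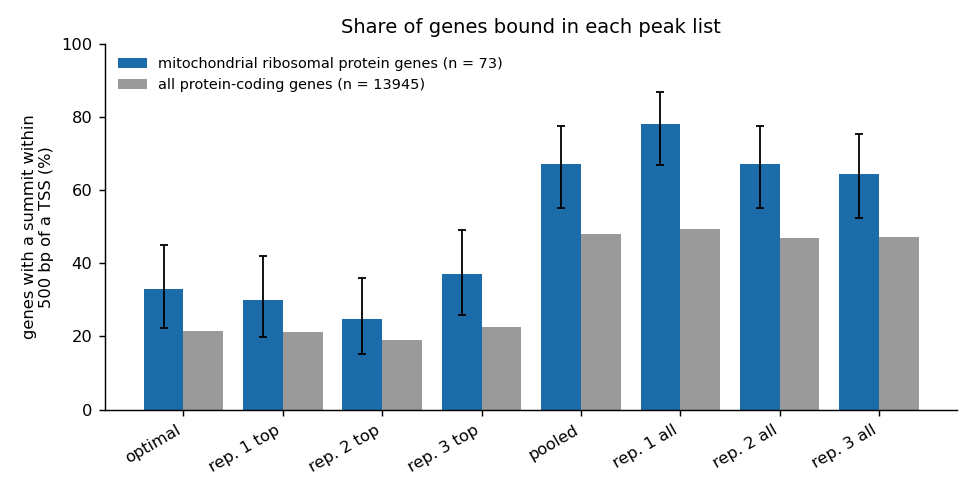
Share of genes (%) with a summit within 500 bp of a TSS in each peak list, for the 73 mitochondrial ribosomal protein genes (blue) and all 13945 protein-coding genes (grey). Whiskers are exact 95% Clopper-Pearson intervals for the members, "top" is the 6221 peaks of highest signal and "all" the whole list. The blue bar is the higher in each of the 8 pairs, and replicate 2 has the lowest of the top bars.

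The subunits differed in where their genes fell in the lists. In the optimal list 12 of 26 small-subunit genes (46.2%) and 12 of 47 large-subunit genes (25.5%) were bound, against 21.6% of all protein-coding genes. The large-subunit share was thus the nearer to that of coding genes. In the whole pooled list the order was the other way, with 15 small-subunit genes (57.7%) and 34 large-subunit genes (72.3%). The coding share there was 48.1%. Over the peaks of highest signal the small subunit had the larger share in each replicate, though by little in replicate 1. Replicate 1 gave 30.8% of small-subunit and 29.8% of large-subunit genes, replicate 2 gave 34.6% and 19.1%, and replicate 3 gave 46.2% and 31.9%. Coding genes gave 21.1%, 19.0% and 22.6%, so the large subunit was at the coding share in replicate 2. Over whole replicate lists the large subunit was ahead in replicates 1 (80.9% against 73.1%) and 3 (66.0% against 61.5%) and behind in replicate 2 (66.0% against 69.2%). Both subunits were above the coding shares of 49.4%, 46.8% and 47.3% in replicates 1, 2 and 3. Only 3 of the 14 small-subunit genes left unbound by the optimal list had a pooled peak, against 22 of the 35 large-subunit genes. Of unbound coding genes 33.7% had one.

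Descent of the protein divided the genes less. Of members with a bacterial counterpart 16 of 46 (34.8%) were bound, and of those known only from mitochondria 8 of 27 (29.6%). The coding share was 21.6%. Proteins of the conserved core were on both sides of the line. Among the bound genes mRpL4, mRpL23 and mRpL24 encode counterparts of bacterial proteins at the nascent-chain exit tunnel, and mRpS7 and mRpS10 encode head proteins of the small subunit. Along the chromosomes, 6 of 12 members were bound on 2L, 5 of 12 on 2R, 6 of 17 on 3L, 6 of 21 on 3R and 1 of 11 on X. The shares over all coding genes of these arms were 21.3%, 20.6%, 23.2%, 23.0% and 19.7%. The single one on X, mRpL30, had the highest peak of all members.

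Peaks at members spanned most of the signal range. Signal is the authors' value per peak, used here only as a rank within a list or relative to the median of the optimal list. The best peaks of the 24 bound members had ranks from 321 to 6019, with a median of 3424.5, against a median of 2937 for the bound protein-coding genes. Both ends were populated, with 4 members (16.7%) in the first 10% of the list and 6 of the 24 in the last 10%, against 9.31% and 9.15% of bound coding genes. Over 5 equal stretches of the list, from its front to its end, the members numbered 6, 2, 6, 3 and 7.

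The highest peak lay at mRpL30 (FBgn0029718), whose protein has a bacterial counterpart in the large subunit. It spans X from 4647260 to 4647893, with a summit at -343 bp from the TSS (negative is upstream), a rank of 321 and a signal 10.4 times the list median. Its ranks were 309, 306 and 405 in replicates 1, 2 and 3, so all 3 placed it near the front. A second optimal summit at this gene, of rank 2486, lay at -115 bp.

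At mRpS10 (FBgn0038307), the peak from 15229339 to 15229722 on 3R ranked 388 with its summit at -128 bp, and its replicate ranks were 432, 496 and 298. For mRpL41 (FBgn0034001), a mitochondria-specific protein of the large subunit, the peak at 2R from 15217567 to 15217919 ranked 412, with 568, 588 and 259 in the replicates and a summit at -138 bp. At mRpS23 (FBgn0260407), mitochondria-specific too, the peak at 2L from 13835293 to 13835659 ranked 483, with 532, 665 and 373 in the replicates. In these 3 genes the signal was 8.24, 7.68 and 6.33 times the list median, and replicate 3 placed each one highest.

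The mRpL23 (FBgn0035335) peak, at 3L from 2373458 to 2373756, ranked 777, with replicate ranks of 930, 1289 and 582. Its summit lay in an intron of the gene, at -85 bp from the nearest of 3 TSSs. The mRpL24 (FBgn0031651) peak, at 2L from 4945348 to 4945630, ranked 900, with replicate ranks of 1261, 1229 and 698. Here too replicate 3 gave the best rank. Next came mRpL20, whose protein is the counterpart of a bacterial assembly protein, with a rank of 1446, and mRpS2 with 1579.

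After these 8 genes the ranks left a gap, the next being mRpS7 at 2996. The lowest 3 were mRpS31 at 5831, mRpL21 at 5876 and mRpS18B at 6019, with signals of 0.595, 0.593 and 0.581 of the list median. Their replicate ranks were 5942, 5670 and 5881 for mRpS31. All 3 replicates thus placed it near the end of their highest 6221 of 30000 peaks. For mRpS18B the replicate ranks were 10345, 4784 and 5321. For mRpL21 they were 5742 in replicate 1 and 5105 in replicate 3, with no summit within 100 bp in replicate 2.

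**Figure D2:**
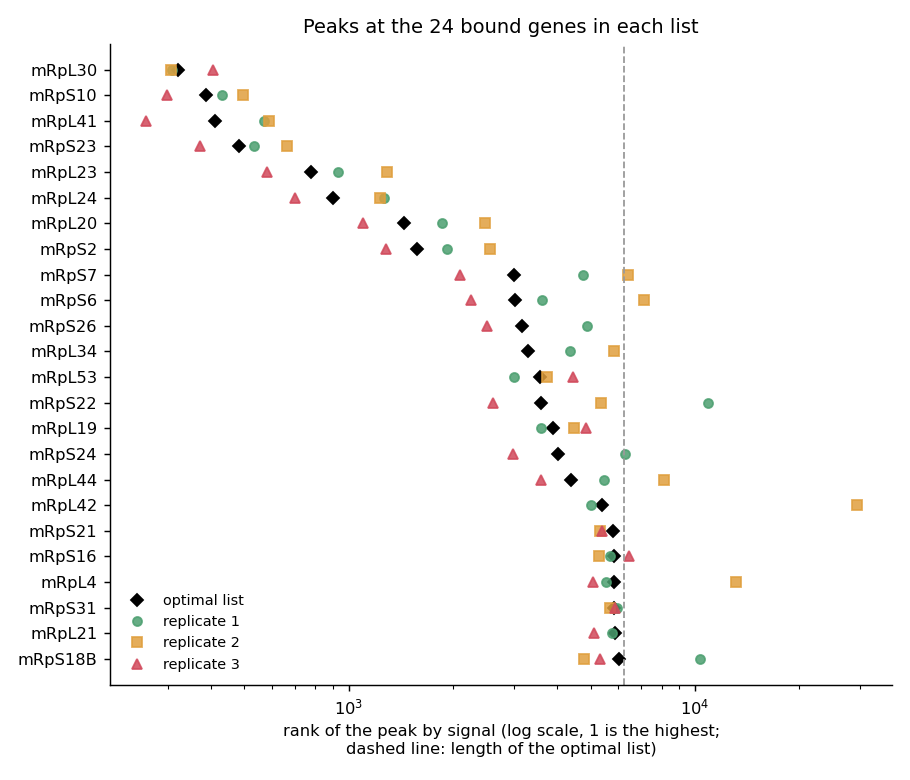
Rank of the peak (log scale, 1 is the highest signal) at each of the 24 bound genes in the optimal list (black diamonds). Coloured points give the best-ranked replicate summit within 100 bp (green circles, orange squares and red triangles for replicates 1, 2 and 3). A dashed line marks 6221. The 8 genes at the top have all replicate points left of the line, and replicate 3 is mostly the leftmost.

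Of the 24 best peaks, 11 (45.8%) had a summit within 100 bp among the 6221 highest of all 3 replicates, against 56.1% of the best peaks of bound coding genes. These were the 8 highest members together with mRpL53, mRpL19 and mRpS31. Another 11 (45.8%) were found in 2 replicates, against 26.5% of those of coding genes, and 0 in none, against 1.33%. The last 2 (8.33%), mRpS24 and mRpL42, were found in 1 replicate, against 16.0%. For mRpS24 that was replicate 3, at rank 2984, while replicate 1 placed it at 6258. For mRpL42 it was replicate 1, at rank 5000, while replicate 2 placed it at 29320. The median optimal rank was 900 for the 11 and 4373 for the other 13.

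Distances between summits were taken where a replicate had a summit within 100 bp of the optimal one, in 23, 21 and 22 of the 24 members for replicates 1, 2 and 3. Where there were several, the best-ranked one was used. By this choice none exceeds 100 bp. The median distance was 7 bp in replicate 1, 19 bp in replicate 2 and 4 bp in replicate 3. Of 18 members with a summit within 100 bp in all whole replicate lists, 12 had their best rank in replicate 3, 4 in replicate 2 and 2 in replicate 1. A coding share for this is not given here. Best peaks of bound coding genes were likewise found most often among the highest 6221 of replicate 3 (85.3%), against 80.9% in replicate 1 and 71.2% in replicate 2. Replicate 3 also stood apart in base composition: the median GC content within 50 bp of its promoter summits was 33.7%, against 40.6% in replicate 1 and 41.6% in replicate 2. Member summits are low in GC, as described with the motifs, and the part of base composition in the replicate ranks was not tested.

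Summits sat upstream of the members' start sites. The median offset was -136.5 bp (quartiles -217.25 and -106, range -384 to 9), and 23 of 24 summits (95.8%) were upstream. For bound coding genes the median was -135 bp and 84.4% were upstream. Within the 200 bp before the start were 16 member summits (66.7%), against 54.8%. The exception was mRpL42, with its summit at 9 bp in the 5′ UTR. The summit of mRpL23 counts as upstream only from an internal TSS, since it lies inside the gene, and in the 3 replicates it was 51, 52 and 84 bp downstream of the nearest TSS. Of the other summits 21 were intergenic, that of mRpL23 was in its own intron, and that of mRpL53 was in an intron of AGO1, the Argonaute of the microRNA pathway.

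A wider window would have added few members. The bound members with the farthest summits were mRpS23 at -384 bp, mRpL30 at -343 bp and mRpS31 at -287 bp. Beyond the window the nearest optimal summits were at 1050 bp for mRpL27, 1472 bp for mRpL13 and -1955 bp for mRpL46. No member had its nearest summit at a distance between those of mRpS23 and mRpL27, and the count stayed at 24 for any window from 400 to 1000 bp. Over these windows the members' share was 32.9%, while that of coding genes rose from 20.7% to 24.8%, so the difference shrank.

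A trait the members share is the divergent promoter. A promoter was called shared when another protein-coding gene on the opposite strand had a TSS within 500 bp. This held for 53 of the 73 members (72.6%), against 3878 of 13945 protein-coding genes (27.8%), and in all 53 the pair ran head to head, the neighbour's start lying upstream. It held for 21 of 24 bound members (87.5%) and for 32 of 49 unbound ones (65.3%). The order depended on the distance allowed: with a neighbour within 250 bp it held for 6 of 24 bound and 19 of 49 unbound members (38.8%). Over coding genes it held for 47.6% of the bound and 22.4% of the unbound.

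Within the same kind of promoter, members and coding genes were close. With a shared promoter 21 of 53 members (39.6%) were bound, against 1435 of 3878 coding genes (37.0%). Without one it was 3 of 20 members (15.0%), against 1582 of 10067 coding genes (15.7%). Inside each promoter class the difference was thus smaller than the 11.2 points over all genes. Most members have a single TSS, and 21 of 67 such members (31.3%) were bound, against 16.2% of coding genes with a single TSS. With a single TSS and a shared promoter it was 18 of 48 members (37.5%) against 32.3%, and with a single TSS and none it was 3 of 19 (15.8%) against 10.5%. The 3 bound members without a divergent coding neighbour were mRpL41, mRpL19 and mRpL4, with summits at -138, -88 and -100 bp.

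Neighbours at the bound promoters are varied in function. At the highest peaks they were HLH4C, a basic helix-loop-helix factor whose TSS is at -457 bp from that of mRpL30, Art3, an arginine methyltransferase, at -257 bp from mRpS10, and CenG1A, a GTPase-activating protein, at -492 bp from mRpS23. CG9004 lies at -24 bp from mRpL23. A pair of neighbours belongs to protein prenylation, betaggt-I, a subunit of a prenyltransferase, at -218 bp from mRpL24, and Icmt, the methyltransferase of prenylated cysteine, at -399 bp from mRpL20. Mon1, at -222 bp from mRpS2, acts in endosome maturation. Those of regulators were Cdk1, the mitotic kinase (-400 bp from mRpS7), AGO1 (-170 bp from mRpL53), Apc2, of the beta-catenin destruction complex (-421 bp from mRpS24), Snr1, a Brahma complex subunit (-290 bp from mRpL44), rept, an AAA ATPase of chromatin remodellers (-279 bp from mRpL21), and cg, a zinc finger gene (-97 bp from mRpS16). The rest were Cip4, Dg (dystroglycan), CG13698, CG5003, PIG-N (of GPI anchor synthesis), Droj2 (a DnaJ chaperone), hzg and Kua, beside mRpS6, mRpL34, mRpS26, mRpS22, mRpL42, mRpS21, mRpS31 and mRpS18B.

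The position of the summit in shared promoters was set against both start sites. The summit lay between both start sites in 19 of 21 shared promoters (90.5%). Among the 1376 bound coding genes whose neighbour's start lies upstream, out of 1435 with a shared promoter, it was 72.9%. In 11 of the 19 it was nearer to the neighbour and in 8 nearer to the member, and bound coding genes were split in a like way, 506 against 491. At mRpL30 the summit was 114 bp from the TSS of HLH4C, and at mRpS23 it was 108 bp from that of CenG1A, so these high peaks were nearer to the other gene. At mRpS10 and mRpL23 the member's own TSS was nearest, at 128 and 85 bp. Over all 24 bound members the own TSS was nearest to the best summit in 13. Counting any optimal summit of a gene, the own TSS was nearest in 14 members and in 2316 of 3017 bound coding genes. Those coding genes less often have a shared promoter (47.6% against 87.5%), and the part of promoter type was not tested.

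**Figure D3:**
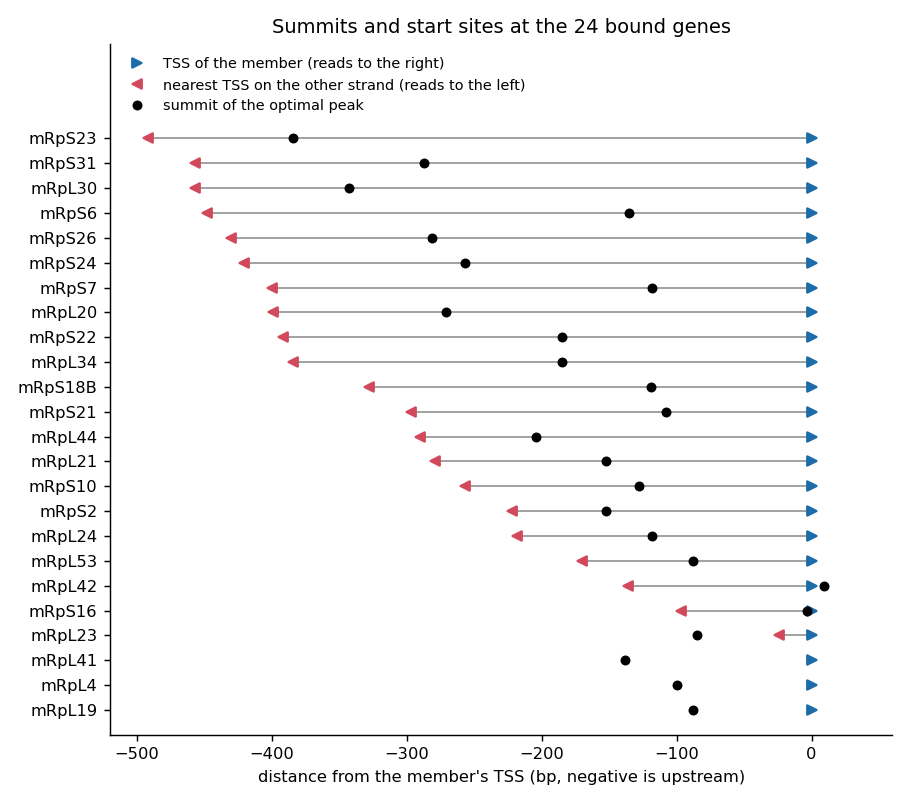
Position (bp from the member's TSS, negative is upstream) of the optimal summit (black) and of the nearest start site on the other strand (red) for the 24 bound genes, sorted by spacing. In 19 genes the black point lies between both triangles. The exceptions with a neighbour are mRpL42 and mRpL23, and the lowest 3 lines have no neighbour.

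Bound members had wider shared promoters than unbound ones. The median distance between both start sites was 328 bp in 21 bound members (range 24 to 492) and 112.5 bp in 32 unbound ones (range 20 to 499). For coding genes whose neighbour's start lies upstream, the set used for all spacings, these medians were 260 and 230 bp. With 200 to 500 bp between the starts, 17 of 31 members (54.8%) were bound, against 41.9% of coding genes of that spacing. Under 200 bp it was 4 of 22 members (18.2%), against 29.2%. The narrowest class, under 100 bp, held 18 members with 2 bound (11.1%), mRpL23 and mRpS16, against 29.0% of coding genes.

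**Figure D4:**
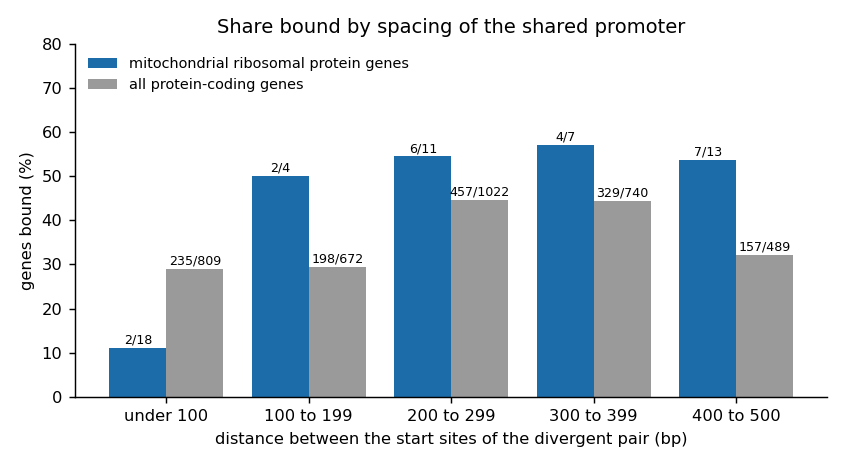
Share of genes bound (%) by distance between the start sites of a head-to-head pair (bp), for members (blue) and protein-coding genes (grey). Bound genes over all genes of the class are above each bar. The blue bar is the lower one under 100 bp (2 of 18) and the higher one in the other 4 classes, of which the narrowest holds 4 members.

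The CCAAT box was not frequent at these summits. Within 50 bp of the summit, CCAAT on either strand occurred at 4 of 24 bound members (16.7%), against 677 of 2802 promoter summits of the optimal list (24.2%). For bound coding genes with a shared promoter it was 20.7%, and for members with one it was 4 of 21 (19.0%). The genes were mRpL30, mRpS7, mRpL34 and mRpS16, with 5 boxes in all. In the mRpL30 sequence the boxes are at X from 4647487 to 4647491 and from 4647521 to 4647525, centred -39 and -5 bp from the summit. The box of mRpS7 is centred 44 bp from the summit, that of mRpL34 34 bp, and that of mRpS16 -6 bp. Of the 8 highest member peaks, the mRpL30 peak alone had the box.

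In the promoter, taken as 250 bp before to 50 bp after the first TSS, CCAAT on either strand was present in 9 of 24 bound members (37.5%), 25 of 49 unbound ones (51.0%) and 46.8% of protein-coding genes. It was thus not more frequent in the bound members than in the unbound ones.

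Other motifs were counted in the same windows, on either strand. GAGAG, the element of the GAGA factor, was within 50 bp of 1 of 24 member summits, against 17.9% of promoter summits and 8.71% of bound coding genes with a shared promoter. TATCGATA, the DNA replication-related element of many housekeeping promoters in the fly, was at none, against 2.68%, but in 15 of 73 member promoters (20.5%), against 9.37% of coding promoters and 17.2% of shared coding ones. GGTCACAC, part of the core promoter element Motif 1, was in 8 member promoters (11.0%), above the 7.71% of all coding promoters and below the 14.5% of shared ones. The hexamer CAGCTG was the most frequent of the palindromes searched. It was in 40 of 73 member promoters (54.8%), against 17.7% of all coding promoters and 971 of 3878 shared ones.

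CAGCTG was found in bound and in unbound members. It was in 12 of 24 bound and 28 of 49 unbound members (57.1%), and within 50 bp of no member summit, against 4.96% of promoter summits. Its place was the start site: the median position was 7 bp from the first TSS, and in 35 of the 40 promoters (87.5%) it was within 50 bp, against 54.2% of the coding promoters that hold it. TATAAA was in 5 member summit windows (20.8%), against 19.7%, CGATA in 2 (8.33%), against 17.6%, and CACAT in 2 (8.33%), against 19.5%. CACGTG was in none, against 1.11%. These letters overlap in part, since TATCGATA contains CGATA.

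Summits at members were poor in G and C. The median GC content within 50 bp of the summit was 27.7% (range 15.8 to 56.4%), against 37.6% of all promoter summits. Below 30% GC were 17 of 24 (70.8%), against 31.9%. Among bound coding genes the median was lower with a shared promoter, 30.7%, than without one, 39.6%. Bound members did not show this order, with 27.7% in the 21 that have one and 24.8% in the 3 without. The part of promoter type in the members' value was not tested.

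Among the 49 unbound members, 25 (51.0%) had a pooled summit in the window, against 33.7% of unbound coding genes. Their pooled ranks ran from 6243 to 27222, with a median of 10787. Just outside the optimal list was mRpL43, a mitochondria-specific protein, at 6243 and -211 bp, while the last bound member, mRpS18B, was at 6019. Then came mRpL47 at 6275 and -73 bp, mRpL17 at 7009 and -260 bp, mRpL16 at 7100 and -159 bp, and mRpL27 at 8050 and -122 bp. In the replicates, mRpL43 ranked 10513, 6271 and 5170, and mRpL47 ranked 11437, 7326 and 4531. Both were thus within the highest 6221 of replicate 3 alone.

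No unbound member was among the highest 6221 in more than 1 replicate. Of unbound coding genes, 1.36% were there in 2 and 0.101% in 3 replicates, so such genes were rare in general. In 8 of the 49 members (16.3%) a summit was there in 1 replicate, against 8.21% of unbound coding genes, and in 41 (83.7%) in none, against 90.3%. Among these 41, 8 members (16.3% of the 49) had no summit in the window in any deposited list, against 49.2% of unbound coding genes. They were mRpL3, mRpL15, mRpL36, mRpL45, mRpL46, mRpS9, mRpS18A and mRpS34, named here after their values were seen. mRpL3 and mRpL15 encode counterparts of large-subunit core proteins of bacteria.

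Related genes were counted in the same way, beside the 21.6% of all protein-coding genes that were bound. Of the mitoribosomal protein genes with other names, tko, which encodes the counterpart of bacterial S12, was bound (rank 5598, summit at 15 bp) and bonsai was not. Of 9 mitochondrial translation factor genes 1 was bound, mRF1, a release factor, at rank 991 and -171 bp. Mitochondrial transcription and RNA genes had 2 of 10 bound, mtTFB2 at 1682 and mTerf5 at 4397, and mitochondrial aminoacyl-tRNA synthetases 1 of 15, ArgRS-m at 4401. Complex I of the respiratory chain, which the mitochondrial ribosome helps to supply, had 7 of 40 subunit genes bound (17.5%), led by ND-ASHI at 1572 and ND-MWFE at 2129. Genes with a symbol of cytosolic ribosomal proteins were bound in 71 of 92 cases (77.2%), led by RpL7 at 972, with a median rank of 2629. The symbols took in 5 genes named only as like a ribosomal protein, of which RpLP0-like and RpL24-like were bound. The share of bound genes among mitochondrial ribosomal proteins, 32.9%, thus lay between those of complex I and of the cytosolic list. That of complex I was below the coding share.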

How the data were processed

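Peaks are deposited with interval, signal, −log10 q and summit offset in bp. The signal is the authors' value, whose scale was not stated, and was used for ranks inside a list. Ranking by the deposited −log10 q-value was an alternative only, since 91.2% of optimal peaks share its maximum. Per the file headers, the authors called peaks per replicate and on the pooled replicates against a control, and derived the optimal list by the irreproducible discovery rate. The aligner, the peak caller and the threshold used were not given in the sources used here. Read depth is unknown. Per the labels, the build is dm6. Positions count from 1.

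Genes on 6 arms came from Ensembl release 115, and sequence from RefSeq's copy of the assembly, where 30540 of 30593 start codons (99.8%) read ATG. The 6221 optimal peaks are the first 6221 of the pooled list, and 163 share an interval with another peak. Python 3.11.15, numpy 2.4.6, pandas 2.3.3 and scipy 1.17.1 were used, and the counting was tested on simulated data. Genes are not replicates, so no test was run. Intervals are exact Clopper-Pearson intervals at 95%.

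The members, lists, motifs and named-gene rule were chosen with earlier results of these data known, and the grouping by bacterial counterpart rests on background knowledge. The rule names all bound members and their neighbours, the 6 highest and 3 lowest with values, the 5 unbound with the best pooled rank, the 3 nearest on either side of the window, and 2 bound genes per other list, of which 1 is not reported here. Of the translation factor symbols, 1 matched no gene. Alternatives covered window, list, start sites, replicates and motif distance.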

Additional observations from a re-analysis of the deposited data

How the results depend on the processing

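Of 46 alternative settings over the results, 24 kept the value near its first reading and 22 moved it. Counts and ranks cannot change sign. Only the difference in bound share and the summit offset could, and neither did. The members' bound share stayed above the coding share in 12 of 12 settings, by 0.281 to 19.1 points. The 24 bound members became 6 with a window of 100 bp, 10 with the 3110 optimal peaks of highest signal, 49 with the pooled list, 14 where a summit had to be nearest to the member's own TSS (the other mRpL30 summit counts here), and 11 where all 3 replicates had to find the peak. The excess of 11.2 points became 0.281, 2.21, 19.1, 2.57 and 2.76 points under these. With each replicate left out in turn, peaks found by both others left 13 to 17 members and 3.89 to 8.17 points. That is fewest without replicate 3, at 13, and 14 without replicate 1. The smaller window, the shorter list and the demand for replicates lower the count by construction, and the longer pooled list raises it. The mean of 22.3 members per replicate became 51 with whole lists and 10.7 with 3110 peaks, and 20 to 24.5 with 1 replicate left out. The 11 members found in all replicates became 18 with whole replicate lists and 13 to 17 with 1 replicate left out, 17 being without replicate 2. The median offset of -136.5 bp was -151 bp with summits of replicate 2. The 21 shared promoters became 6 with a neighbour within 250 bp, where unbound members had 19 of 49 (38.8%), so the order of bound and unbound turned. The 4 summits with CCAAT became 2 within 25 bp and 7 within 100 bp. Asking for the member's own TSS as nearest, for a neighbour within 250 bp or for CCAAT within 25 bp can likewise only lower a count. Whole replicate lists, CCAAT within 100 bp, and 1 replicate left out of the demand for all 3 can only raise one. The cause of the other changes was not tested. No paired analysis was possible because there is only 1 group. With depth unknown, a member without a peak is not shown to be free of binding.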
